A study of Mus musculus with 75 samples.

Results

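The effect of ABTAA was examined in obstructed mouse kidneys by comparing 15 of the 75 bulk RNA-Seq libraries of the series. They were the libraries whose labels gave both unilateral ureter obstruction (UUO, kidneys taken 3 days after ligation) and injection of either ABTAA (*n* = 7) or human IgG Fc (*n* = 8). ABTAA is an antibody that binds angiopoietin-2 (ANGPT2) and activates its receptor TIE2. The control protein was injected i.p. at the dose used for ABTAA. Mice of both groups were adult C57BL6/J animals from in-house breeding or WT animals from the study's crosses, of both sexes, and all of them had received carprofen. Allocation to treatment was not randomized. The study describes whole kidneys with a single animal as the unit. In such bulk RNA a lower level of a transcript could reflect fewer cells of a type or less RNA per cell, which cannot be told apart. These values were set beside another pair of comparisons, ABTAA against IgG in the unobstructed contralateral (CL) kidneys of the same 2 treatments (15 libraries), and VeptpKO against VeptpWT in UUO kidneys (16 libraries). VeptpKO mice lack the phosphatase VEPTP in endothelium through *Cdh5*-driven, tamoxifen-inducible Cre. Their controls carried Cre but were not induced.

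TIE2, encoded by *Tek*, is a receptor tyrosine kinase of endothelium. Angiopoietin-1 from mural and mesenchymal cells activates it and keeps vessels quiescent, whereas ANGPT2, released by activated endothelium, acts mostly as an antagonist. VEPTP, encoded by *Ptprb*, removes phosphate from TIE2. Ureter obstruction leads to loss of peritubular capillaries, dedifferentiation of tubular epithelium with loss of its transport and oxidative programs, inflammation, and deposition of matrix by activated fibroblasts and pericytes.

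Before the results, 3 features of the libraries need stating. Library names had 2 forms, plain (a letter and a number run together) and split (the letter and the number parted by the sign _), and what the form marked was not stated. Of the IgG libraries 4 had each form, and of the ABTAA libraries 4 had plain and 3 split names. Between the 2 forms 2080 of 7923 genes (26.3%) differed at an adjusted *p* under 0.05 in edgeR's quasi-likelihood test, and the share of counts from ribosomal RNA-derived loci was 8.57% to 13.9% with plain and 4.10% to 5.91% with split names. The name form was therefore a covariate throughout, and values within each form are given beside the pooled medians of most gene lists. In addition, 6 of the 15 libraries (4 IgG and 2 ABTAA, 5 of them with plain names) held at least 10 counts both of *Xist*, made by female cells, and of Y-linked genes. RNA of 1 animal would not normally hold both, and whether each of these libraries came from 1 animal was not tested. Of the 105 pairs of libraries the closest was IgG replicate 1 and ABTAA replicate 3, although their counts still differed by more than sampling noise (variance 1.327 times noise). The comparison of ABTAA with IgG in UUO kidneys, its list medians and 54 single genes were also computed without the 6 libraries and without that pair, and the other comparisons were not. The 6 included 3 of the 4 plain-name IgG and 2 of the 4 plain-name ABTAA libraries. Without them IgG replicate 2 was the only plain-name IgG library left. That alternative therefore rests mostly on split-name libraries and is not a check separate from the name form. List medians within a form, or without the 6 libraries, were taken over the genes tested both there and in all 15 libraries. Library totals ran from 172827 to 950522 counts in IgG (median 400371) and from 359468 to 939079 in ABTAA (median 538996). The injury marker *Havcr1* set the labels apart, at 497 to 1977 CPM in the 15 UUO libraries and 4.00 to 23.7 in the 15 CL libraries on a scale common to both.

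No gene passed the threshold between ABTAA and IgG in obstructed kidneys. At an adjusted *p* under 0.05, edgeR's quasi-likelihood test called 0 of 7923 genes (0%), and the lowest adjusted *p* was 0.90. At an unadjusted *p* under 0.05 there were 409 genes (5.16%), of which 215 (2.71%) were higher and 194 (2.45%) lower with ABTAA. DESeq2, edgeR's exact test and limma voom also called 0 genes at the adjusted threshold. Within plain-name libraries edgeR called 0 of 6964 genes (0%) and 439 (6.3%) unadjusted, and within split-name libraries 5 of 9378 (0.0533%) and 427 (4.55%) unadjusted, the 5 being *Cfd*, *Hp*, *Car3*, *Thrsp* and *Rps28*. Precision differed with expression level. The 95% interval of the log2 fold change lay within 1 unit of 0 for 7794 genes (98.4%), and within 1.5-fold for 5534 genes (69.9%), from 37.7% in the lowest to 88.1% in the highest of 4 equal classes of expression. The descriptions that follow therefore concern sets of genes chosen by function, with every single value short of the adjusted threshold, and unadjusted *p* values are given to rank them. Over all genes tested the median log2 fold change was -0.0054, with 51.3% of estimates below 0 and 48.7% above. The lists, and the genes named from them, were chosen with earlier results of these data known. Outside the lists that the study itself drew up, the genes named from a list were those with its lowest unadjusted *p*. *Col8a1* and *B2m* were on none of the functional lists. They were named for a low unadjusted *p* among all genes with a mean of at least 20 CPM.

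The target and its pathway were described first. *Angpt2* (chromosome 8, 18690263 to 18741562, mm10), the ligand that ABTAA binds, was represented by 1 to 19 counts per library and was not tested. In CPM (counts scaled to a common library size, after TMM normalization), its lowest, median and highest levels were 6.97, 13.6 and 31.3 with IgG and 2.54, 15.7 and 33.8 with ABTAA. The groups overlapped over nearly their whole range. *Angpt1*, which encodes angiopoietin-1, was not tested either. Its medians were 8.65 CPM with IgG and 15.3 with ABTAA in plain-name libraries, and 8.47 and 8.38 in split-name libraries. *Tek* (chromosome 4, 94739086 to 94874976) stood at 13.9, 33.8 and 63.3 CPM with IgG and at 22.1, 40.6 and 58.6 with ABTAA. The log2 fold change was 0.12 (SE 0.19, unadjusted *p* = 0.52), with a 95% interval from -0.27 to 0.52. The log2 fold changes were -0.23 (SE 0.17) for *Ptprb* and -0.26 (SE 0.18) for *Foxo1*, the transcription factor that TIE2 signaling keeps out of the nucleus, neither under 0.05 unadjusted. Of 15 genes on the angiopoietin-TIE list 10 were tested, 4 higher and 6 lower, 0 of them at an unadjusted *p* under 0.05, and the median was -0.050 (-0.03 with plain and -0.13 with split names).

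Estimates for endothelial transcripts lay on both sides of 0. Of 10 endothelial markers in the study's own panel 8 were tested, with 4 higher and 4 lower and a median of -0.0055, close to that of all genes (-0.09 with plain and -0.01 with split names, and 0.09 without the 6 libraries with both *Xist* and Y-linked counts). With every library thinned to the total of the shallowest, 1 gene of the panel was still tested, at -0.41. *Emcn*, a capillary sialomucin, stood at 32.3, 49.7 and 78.2 CPM with IgG and at 41.1, 48.2 and 60.7 with ABTAA (log2 fold change 0.03, SE 0.15). *Pecam1* (-0.15, SE 0.19), *Cdh5*, which encodes VE-cadherin (0.13, SE 0.23), and *Kdr*, the main VEGF receptor (-0.04, SE 0.21), all had intervals that spanned 0. For *Emcn* the ABTAA libraries lay inside the range of the IgG libraries. Genes for fenestrae and junctions (9 of 13 tested, median 0.031, -0.05 and -0.04 within plain and split names) and for glomerular and arterial endothelium (4 of 7 tested, median 0.10, 0.06 and 0.19 within them) likewise differed in direction from gene to gene. The glomerular and arterial median was 0.25 without the 6 libraries and -0.20 over the 2 genes still tested after thinning. The coreceptor *Nrp1*, which endothelium shares with mesenchymal and tubular cells, was the gene of the PDGF and VEGF list with the lowest *p*. It stood at 158, 201 and 259 CPM with IgG and at 118, 152 and 216 with ABTAA (log2 fold change -0.28, SE 0.10, unadjusted *p* = 0.013).

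Of the leukocyte adhesion molecules that activated endothelium and injured tubules make, *Vcam1* stood at 269.9, 573 and 716 CPM with IgG and at 206, 301 and 874 with ABTAA (log2 fold change -0.31, SE 0.15, unadjusted *p* = 0.048). It was -0.51 with plain and -0.13 with split names. The highest of all 15 values was from an ABTAA library, while 4 of the 7 ABTAA libraries lay below 6 of the 8 IgG libraries. *Icam1* had a log2 fold change of -0.17 (SE 0.12). Without the 6 libraries with both *Xist* and Y-linked counts, the values were -0.14 for *Vcam1* and -0.06 for *Icam1*.

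**Figure D1:**
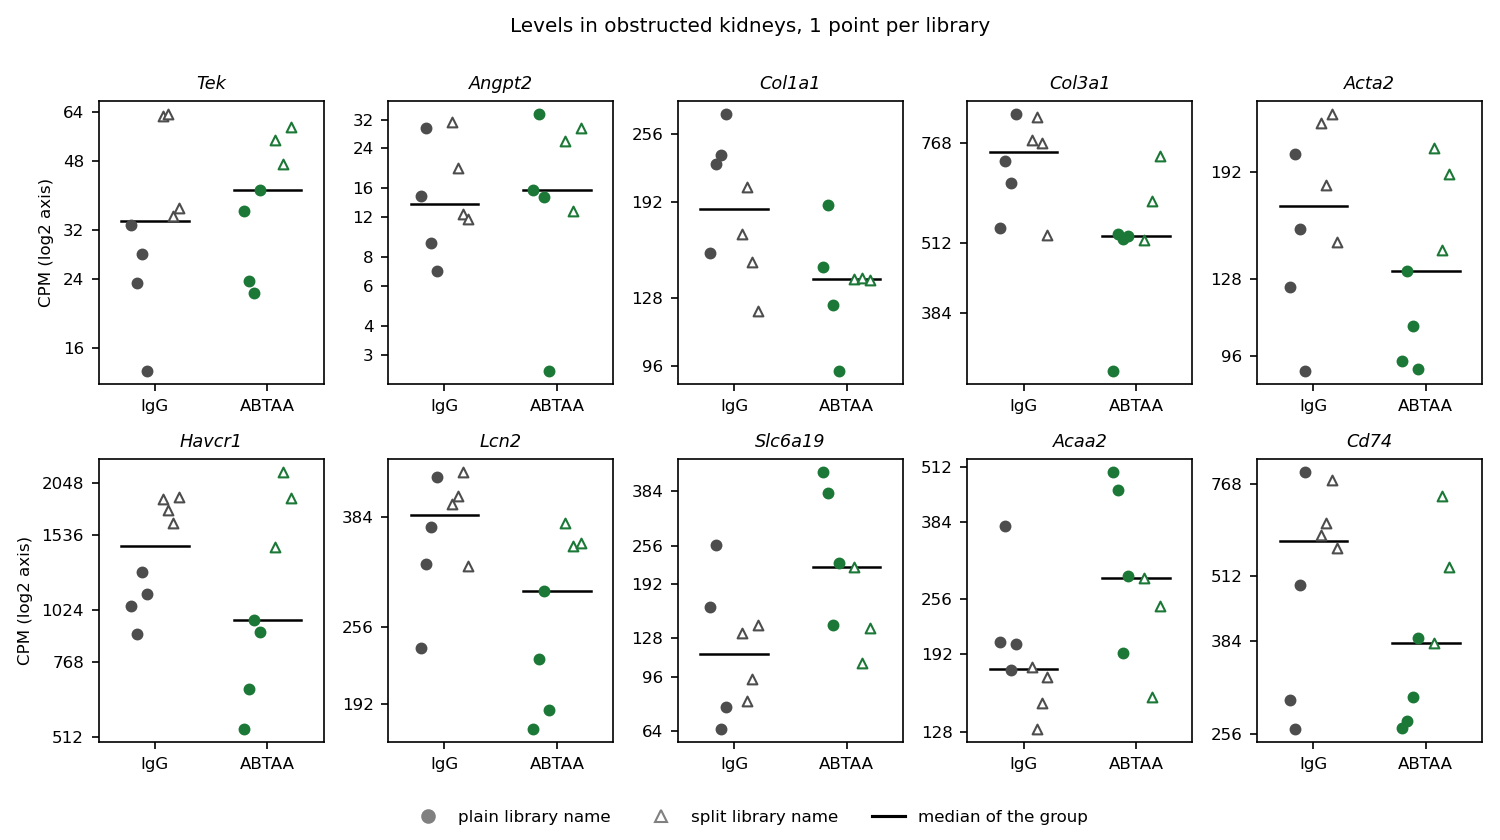
CPM on a log2 axis for 10 genes in the 8 IgG and 7 ABTAA libraries of obstructed kidneys, with circles for plain library names, triangles for split names and a bar at the group median. The groups overlap for each of the 10 genes, and for *Col1a1*, *Lcn2* and *Slc6a19* the most extreme ABTAA libraries are those with plain names.

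Estimates for matrix genes lay below 0. All 13 tested of the 14 ECM modification genes had estimates below 0, with a median log2 fold change of -0.29 and 4 of them at an unadjusted *p* under 0.05, against 2.45% of all genes. This panel was drawn up for a display of the same libraries, so its direction is not independent evidence. *Col1a1* (chromosome 11, 94936224 to 94953042), the alpha-1 chain of type I collagen, stood at 121, 187 and 279 CPM with IgG and at 93.9, 139 and 189 with ABTAA. The log2 fold change was -0.44 (SE 0.15, unadjusted *p* = 0.0073), with the 6 lowest ABTAA libraries below the IgG median and IgG replicate 8 lowest of its group. Within forms it was -0.68 with plain and -0.20 with split names. *Col3a1*, the chain of type III collagen, stood at 529, 740.0 and 864 CPM with IgG and at 303, 525 and 729 with ABTAA (-0.40, SE 0.14, unadjusted *p* = 0.0087). ABTAA replicate 1 held the lowest value by a wide margin, and the remaining 6 ABTAA libraries lay within the span of the IgG libraries or just under it. *Col1a2* (-0.34, SE 0.15) and *Tagln*, a smooth muscle and myofibroblast actin-binding protein (-0.35, SE 0.15), were the other 2 with an unadjusted *p* under 0.05. *Acta2*, which encodes alpha-smooth muscle actin (-0.29, SE 0.15), *Fn1*, fibronectin (-0.21, SE 0.14), and *Pdgfrb*, the PDGF receptor of pericytes and fibroblasts (-0.23, SE 0.17), were not. *Pdgfrb* was at -0.42 with plain and -0.03 with split names, at -0.09 without IgG replicate 3, at -0.07 without the 6 libraries with both *Xist* and Y-linked counts, and at -0.73 after thinning to the shallowest library.

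Matrix genes outside that panel lay in the same direction. Of 26 further collagens and matrix genes 20 were tested, 18 lower and 2 higher, with a median of -0.21. *Col6a1*, a chain of the microfibrillar collagen VI, stood at 27.4, 38.6 and 55.8 CPM with IgG and at 12.8, 23.2 and 37.2 with ABTAA (log2 fold change -0.59, SE 0.22). *Col8a1*, a short-chain collagen of vessel walls, stood at 38.1, 53.3 and 70.8 CPM and at 22.8, 33.2 and 54.4, respectively (-0.56, SE 0.18). For both genes the ABTAA median lay below every IgG value. *Col8a1* was not on the list of further collagens and was named for its low unadjusted *p*. Matrix proteases and their inhibitors (11 of 17 tested) were lower in 11 of 11, with a median of -0.16 and *Serpine2*, protease nexin-1, at -0.45 (SE 0.19). TGF-beta response genes (8 of 15 tested) were lower in 7 of 8, with a median of -0.18 and *Tgfbi* at -0.39 (SE 0.15). Fibroblast and pericyte markers (9 of 16 tested) were lower in 7 of 9, with a median of -0.23 and the pericyte gene *Rgs5* at -0.37 (SE 0.16). With plain and split names the medians were -0.37 and -0.13 for further collagens, -0.26 and -0.09 for proteases and inhibitors, -0.19 and -0.20 for the TGF-beta response, and -0.35 and -0.14 for fibroblasts and pericytes. The protease median was -0.078 without the 6 libraries with both *Xist* and Y-linked counts.

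The estimated matrix difference was larger in plain-name than in split-name libraries, and the list as a whole was not tested between the 2 forms. The median of the ECM modification list was -0.48 within plain-name libraries and -0.11 within split-name libraries, where 12 of 13 genes were still below 0. As the mean of log2(CPM + 1) over the 13 genes, the 4 plain-name ABTAA libraries lay between 6.65 and 6.97, below all 4 IgG libraries of that form (7.05 to 7.52). The 3 split-name ABTAA libraries lay between 7.12 and 7.34, inside the range of their IgG counterparts (7.07 to 7.50). Without the 6 libraries with both *Xist* and Y-linked counts the list's median was -0.27, and without the closest pair it was -0.31. The ABTAA effect did not differ between forms at the adjusted threshold for any matrix gene.

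**Figure D2:**
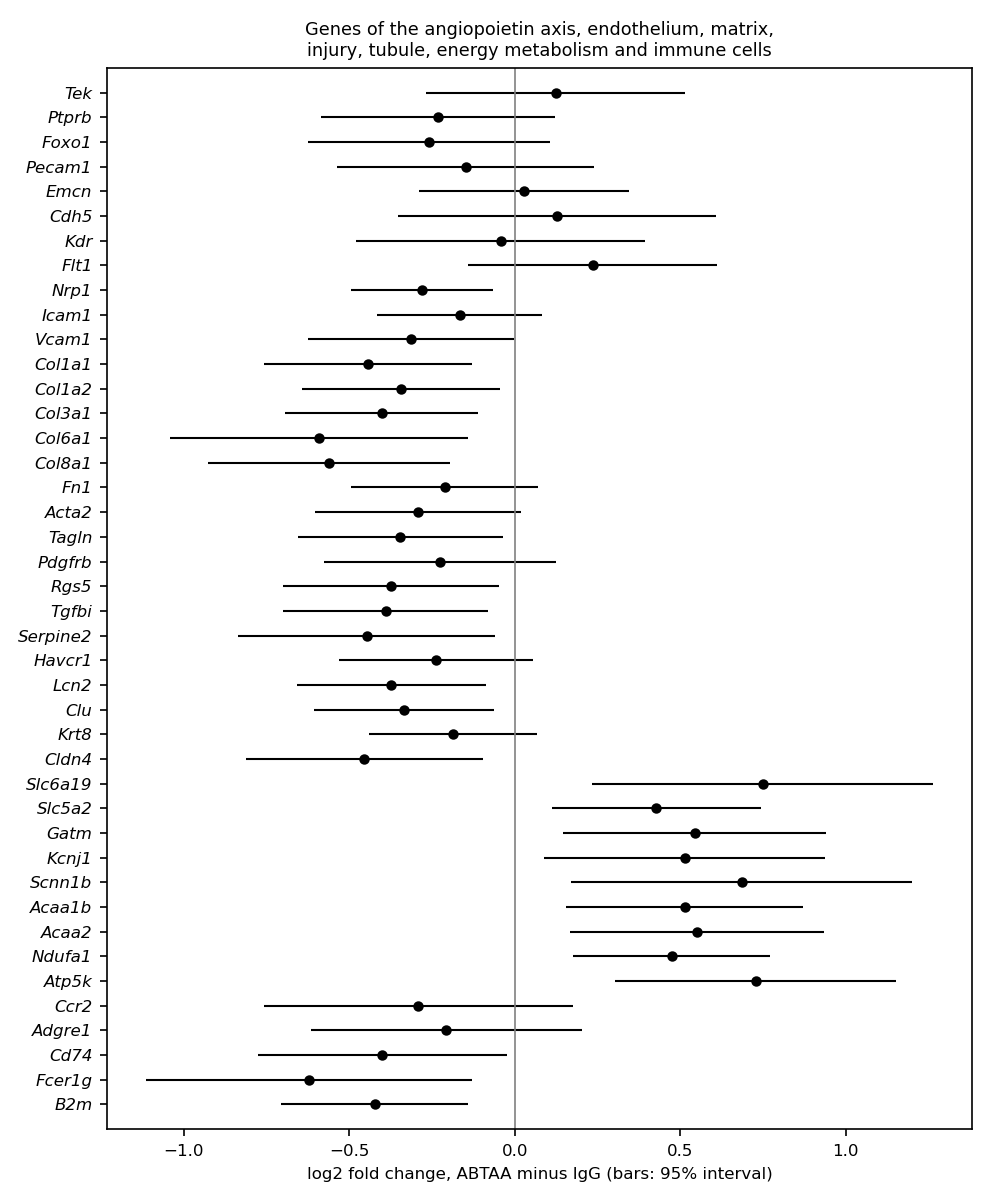
Log2 fold change (ABTAA minus IgG, *x* axis) with its 95% interval for named genes of the angiopoietin axis, endothelium, matrix, tubular injury, tubule transport, energy metabolism and immune cells in obstructed kidneys, from edgeR with the name form as covariate. Intervals of matrix and injury genes lie mostly below 0 and those of transport and metabolism genes above 0, and none of these genes passed the adjusted threshold.

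Estimates for tubular injury genes lay below 0 over all libraries and near 0 within split-name libraries. All 8 genes of the study's tubular injury panel, displayed for these same libraries, had estimates below 0, with a median of -0.20. At an unadjusted *p* under 0.05, 2 were lower, against 2.45% of all genes. *Havcr1* (chromosome 11, 46739822 to 46779578), which encodes the phosphatidylserine receptor KIM-1 of injured proximal tubule, stood at 898, 1450.5 and 1892 CPM with IgG and at 534, 970.2 and 2171 with ABTAA. Its log2 fold change was -0.24 (SE 0.14, unadjusted *p* = 0.11), -0.49 with plain and 0.04 with split names, and the highest of the 15 values was from an ABTAA library. *Lcn2*, the siderophore-binding lipocalin of injured distal tubule, stood at 237, 387 and 454 CPM with IgG and at 175, 292 and 375 with ABTAA (-0.37, SE 0.14, unadjusted *p* = 0.013). Its estimate was -0.60 with plain and -0.14 with split names. *Clu*, the secreted chaperone clusterin, stood at 2087, 2466 and 3645 CPM and at 1730.0, 2115 and 2293, respectively (-0.33, SE 0.13, unadjusted *p* = 0.018). For *Lcn2* and *Clu* every ABTAA library lay under the IgG median. On a longer list of genes of injured and repairing tubule, 29 of 34 were tested, and 28 were lower and 1 higher, with a median of -0.22. At an unadjusted *p* under 0.05, 7 were lower, against 2.45% of all genes. *Cldn4*, a tight junction claudin, was at -0.45 (SE 0.17). The median of that list was -0.39 with plain and -0.12 with split names. The medians were -0.13 for the study's panel and -0.23 for the longer list without the 6 libraries with both *Xist* and Y-linked counts.

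Transport genes of the nephron lay on the other side of 0. Of 30 proximal tubule genes 29 were tested, 28 higher and 1 lower with ABTAA, with a median of 0.23 and 7 at an unadjusted *p* under 0.05, against 2.71% of all genes. *Slc6a19* (chromosome 13, 73679745 to 73700780), the luminal neutral amino acid transporter, stood at 64.9, 114 and 258 CPM with IgG and at 106, 219 and 444 with ABTAA. Its log2 fold change was 0.75 (SE 0.25, unadjusted *p* = 0.0060), with ABTAA replicates 1 and 2 above every IgG library and the others among them. *Slc5a2*, the glucose transporter SGLT2, was at 0.43 (SE 0.15), and *Gatm*, the first enzyme of creatine synthesis, at 0.54 (SE 0.19). *Gatm* was at 0.84 with plain and 0.20 with split names. In the loop of Henle list (8 of 10 tested, 7 higher) the median was 0.33, and *Kcnj1*, the potassium channel ROMK, was at 0.51 (SE 0.21). *Kcnj1* was at 0.82 with plain and 0.19 with split names. Distal tubule genes (9 of 11 tested, 8 higher) had a median of 0.20, and principal cell genes of the collecting duct (8 of 10 tested, 6 higher) of 0.11, with the sodium channel subunit *Scnn1b* at 0.69 (SE 0.25). Within forms, the medians with plain and with split names were 0.39 and 0.09 for proximal tubule, 0.65 and -0.02 for loop of Henle, 0.51 and -0.23 for distal tubule, and 0.18 and 0.14 for principal cells. Without the 6 libraries with both *Xist* and Y-linked counts they were 0.16, 0.06, 0.05 and 0.33, respectively.

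Estimates for nuclear genes of oxidative phosphorylation lay mostly above 0. Of 42 nuclear genes of oxidative phosphorylation, all tested, 41 had estimates above 0, with a median of 0.18. At an unadjusted *p* under 0.05, 8 were higher, against 2.71% of all genes. *Ndufa1*, a subunit of respiratory complex I, stood at 97.97, 212 and 431 CPM with IgG and at 174, 338 and 514 with ABTAA (log2 fold change 0.47, SE 0.14, unadjusted *p* = 0.0030). The groups overlapped over most of their range. The median of the list was 0.32 with plain and -0.01 with split names. It was 0.080 without the 6 libraries with both *Xist* and Y-linked counts. Of the 13 genes encoded by mitochondrial DNA, 5 were higher and 8 lower, with a median of -0.036. With plain names 12 of these 13 were higher (median 0.15), and with split names 9 were lower (median -0.22).

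Fatty acid oxidation and peroxisome genes had nearly the same median in both forms. Of 31 genes 30 were tested, 28 higher and 2 lower, with 9 higher at an unadjusted *p* under 0.05, against 2.71% of all genes. The median was 0.21, with 0.20 in plain-name and 0.22 in split-name libraries. It was 0.19 without the 6 libraries with both *Xist* and Y-linked counts. *Acaa2*, the thiolase of mitochondrial beta-oxidation, stood at 129.6, 178 and 376 CPM with IgG and at 153, 286 and 498 with ABTAA (log2 fold change 0.55, SE 0.19, unadjusted *p* = 0.0067). IgG replicate 2 lay apart from the other 7 IgG libraries, which all lay below 5 of the 7 ABTAA libraries. *Acaa1b*, its peroxisomal counterpart, stood at 118, 163 and 361 CPM and at 169, 262 and 449.9, respectively (0.51, SE 0.17, unadjusted *p* = 0.0066). *Ehhadh*, the peroxisomal bifunctional enzyme (0.37, SE 0.14), *Crat*, carnitine acetyltransferase (0.42, SE 0.16), and *Slc25a20*, the mitochondrial carnitine carrier (0.41, SE 0.16), were also higher at an unadjusted *p* under 0.05.

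**Figure D3:**
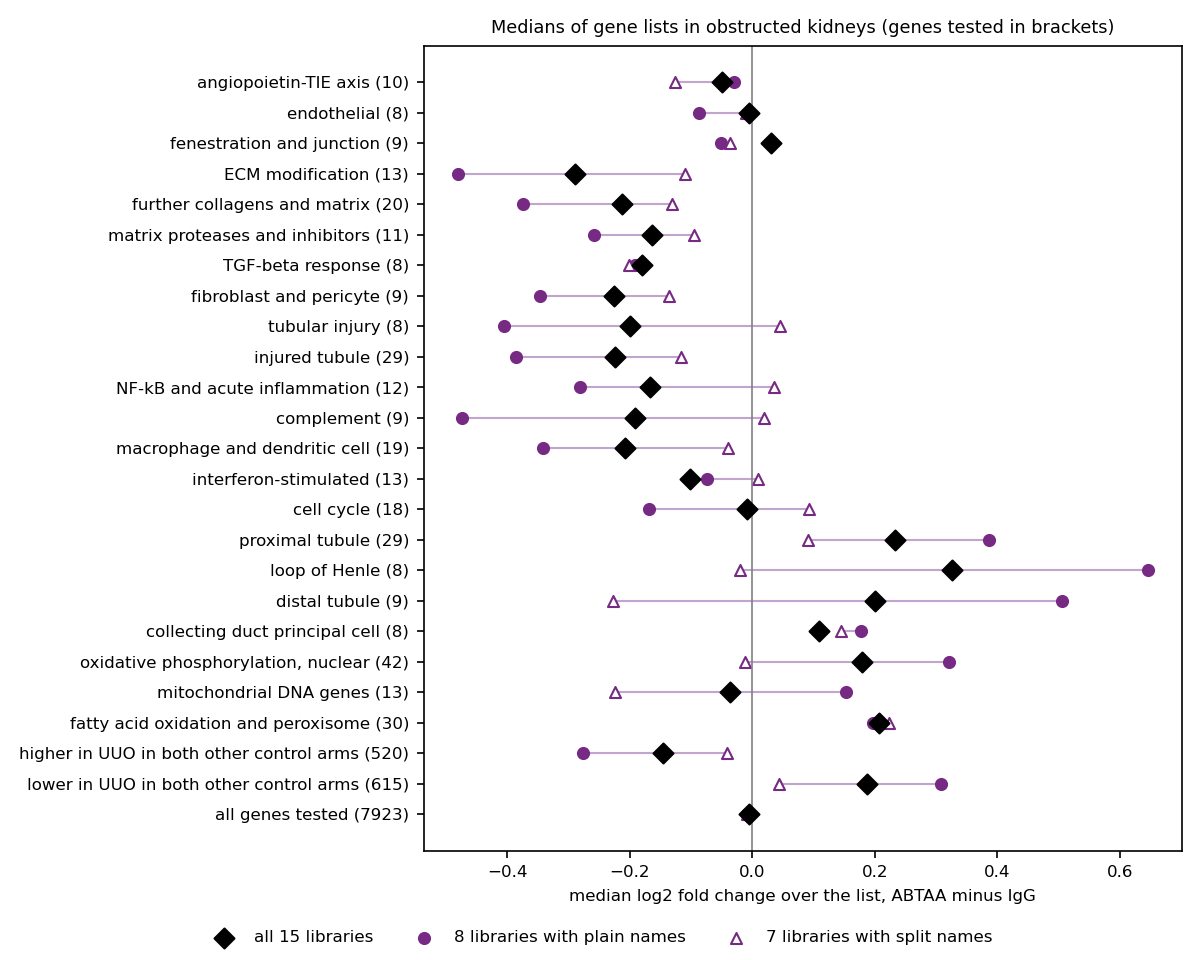
Median log2 fold change (ABTAA minus IgG, *x* axis) over the tested genes of each list in obstructed kidneys, as diamonds for all 15 libraries, circles for the 8 with plain names and triangles for the 7 with split names. Matrix and injury lists lie below 0 and tubule, nuclear oxidative phosphorylation and fatty acid oxidation lists above 0 over all libraries, the plain-name medians are mostly farther from 0, and fatty acid oxidation has nearly the same median in both forms.

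Estimates for immune transcripts lay mostly below 0. Of 21 macrophage and dendritic cell genes 19 were tested, 17 lower and 2 higher, with 3 lower at an unadjusted *p* under 0.05, against 2.45% of all genes. The median was -0.21, with -0.34 in plain-name and -0.04 in split-name libraries. *Cd74*, the invariant chain of class II antigen presentation, stood at 261, 597 and 809 CPM with IgG and at 262, 381 and 727 with ABTAA (log2 fold change -0.40, SE 0.18, unadjusted *p* = 0.038). Without the 6 libraries with both *Xist* and Y-linked counts it was -0.11. *Fcer1g*, the signaling chain of myeloid Fc receptors, was at -0.62 (SE 0.24), with ABTAA replicate 2 far below the rest. *B2m*, the light chain of class I molecules, stood at 745, 1074 and 1338 CPM with IgG and at 604, 763 and 1010 with ABTAA (-0.42, SE 0.14, unadjusted *p* = 0.0048). *B2m* was on none of the immune lists and was named for its low unadjusted *p*. The monocyte receptor *Ccr2* (-0.29, SE 0.23) and the macrophage marker *Adgre1* (-0.21, SE 0.20) had intervals that spanned 0. *Adgre1* was at -0.007 without the 6 libraries with both *Xist* and Y-linked counts. NF-kB and acute inflammation genes (12 of 27 tested, 10 lower, median -0.17) were at -0.28 with plain and 0.04 with split names. Complement genes (9 of 12 tested, 8 lower, median -0.19) were at -0.47 and 0.02, respectively. Without the 6 libraries with both *Xist* and Y-linked counts the medians were -0.12 for macrophages and dendritic cells, 0.02 for NF-kB and acute inflammation, which turned its direction, and -0.085 for complement. None of 6 neutrophil genes reached the expression needed for a test.

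Genes were also grouped by how UUO itself affects them, using control libraries that take no part in the ABTAA comparison. In both VeptpWT and PdgfbWT mice, 573 genes were higher and 674 lower in UUO than in CL kidneys at an adjusted *p* under 0.05. PdgfbWT mice were Cre-negative littermates with floxed *Pdgfb*, with 4 UUO and 4 CL libraries. Per the study's methods, the PdgfbWT CL group included kidneys of 2 sham-operated mice in place of lost samples, so its baseline was not contralateral throughout. Of the UUO-higher genes 520 were tested with ABTAA, of which 427 were lower and 93 higher, with a median of -0.15. At an unadjusted *p* under 0.05, 60 were lower and 0 higher, against 2.45% and 2.71% of all genes. Of the UUO-lower genes 615 were tested, of which 551 were higher and 64 lower, with a median of 0.19. At an unadjusted *p* under 0.05, 92 were higher and 3 lower, against 2.71% and 2.45% of all genes. The medians were -0.28 and 0.31 with plain and -0.04 and 0.04 with split names, and -0.10 and 0.12 without the 6 libraries with both *Xist* and Y-linked counts. As mean log2(CPM + 1) of the UUO-higher genes, ABTAA replicates 1, 2 and 4 stood at 5.89, 6.08 and 6.11, below all 8 IgG libraries (6.27 to 6.56). The other 4 ABTAA libraries, at 6.30 to 6.42, lay among the IgG libraries. In the UUO-lower genes the same 3 ABTAA libraries, at 7.59 to 7.76, lay above all 8 IgG libraries (6.94 to 7.44).

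**Figure D4:**
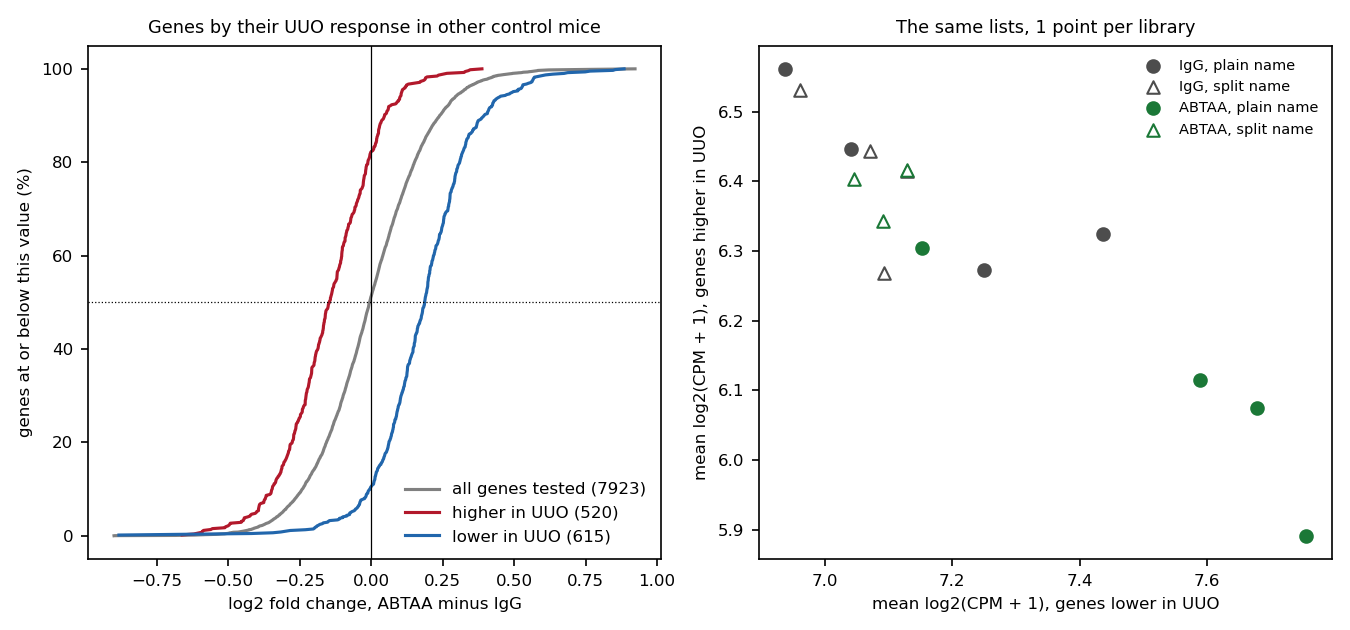
Left, the cumulative share of genes (%) by log2 fold change (ABTAA minus IgG) for all 7923 genes tested, 520 genes higher and 615 genes lower in UUO in other control mice. Right, the mean log2(CPM + 1) of the same 2 sets in each of the 15 libraries, where 3 plain-name ABTAA libraries lie apart at the lower right and the other 4 lie among the IgG libraries (1 IgG and 1 ABTAA triangle coincide at 7.13 on the *x* axis).

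Genes outside the functional lists with the lowest unadjusted *p*, apart from *Col8a1* and *B2m* given above, were of mixed function. *Tapt1*, a membrane protein of the ciliary base, stood at 12.7, 18.4 and 35.2 CPM with IgG and at 24.7, 32.7 and 46.2 with ABTAA (0.92 on the log2 scale, SE 0.21, unadjusted *p* = 0.00013), with an adjusted *p* of 0.90 in edgeR. *Tpx2*, a spindle assembly factor, stood at 20.5, 28.4 and 41.8 CPM and at 8.43, 13.5 and 20.5, respectively (-0.90, SE 0.22, unadjusted *p* = 0.00032). It was the 1 gene of 7923 (0.0126%) that was lower with ABTAA without overlap of the groups, although its lowest IgG and highest ABTAA values were nearly equal. Of 24 cell cycle genes 18 were tested, 8 higher and 10 lower, with a median of -0.0088. With plain names 14 of 16 were lower (median -0.17), and with split names 5 of 18 (median 0.09). *Dguok*, the mitochondrial deoxyguanosine kinase, stood at 23.5, 31.0 and 34.9 CPM with IgG and at 36.7, 41.9 and 60.9 with ABTAA, the 1 gene (0.0126%) that was higher without overlap (0.55, SE 0.16, unadjusted *p* = 0.0025). *Coq2*, an enzyme of ubiquinone synthesis (0.58, SE 0.17), *Fpgs*, folylpolyglutamate synthase (0.77, SE 0.22), and *Atp5k*, a subunit of ATP synthase (0.73, SE 0.21), were among the higher genes, and the kinase *Csnk1e* (-0.68, SE 0.21) was among the lower ones.

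For 3 transcripts the ABTAA effect differed between the 2 forms of library name at an adjusted *p* under 0.05 (0.0379% of genes, edgeR interaction), against 400 (5.05%) at an unadjusted *p* under 0.05. The difference of log2 fold changes was 5.41 for *Hp*, haptoglobin (adjusted *p* = 0.00021), 4.63 for *Car3*, carbonic anhydrase III (adjusted *p* = 0.00064), and 1.27 for *Plin2*, a lipid droplet coat protein (adjusted *p* = 0.046). *Hp* stood at 77.3, 76.7 and 129 CPM in IgG replicates 3, 4 and 2 and at 103, 128 and 195 in ABTAA replicates 5, 6 and 7. In the other 9 libraries it was at 6.73 to 27.4 CPM. The adipocyte transcripts *Cfd* and *Adipoq* were highest in the same 6 libraries, and *Lep* was at 0 in all 15. Over the 8 adipocyte markers the summed level was 77.0 to 845 CPM in IgG and 114 to 699 in ABTAA libraries, with *Fabp4*, which endothelium also makes, the most abundant in most libraries. The part of these transcripts in other results was not tested.

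**Figure D5:**
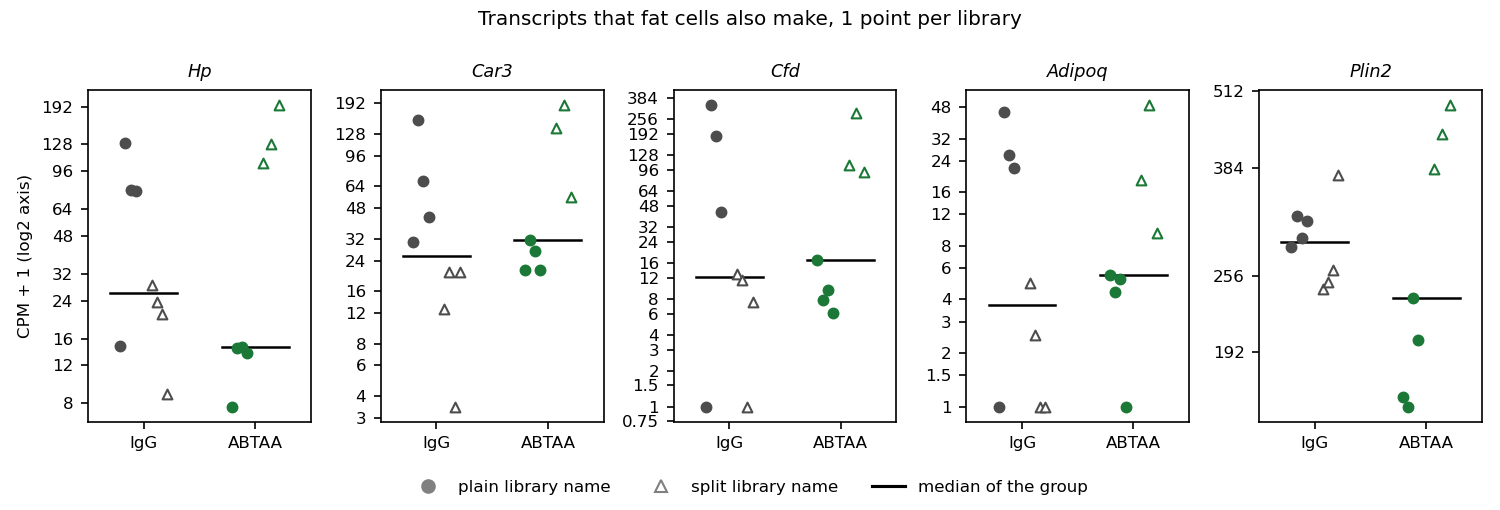
CPM + 1 on a log2 axis for *Hp*, *Car3*, *Cfd*, *Adipoq* and *Plin2* in the 8 IgG and 7 ABTAA libraries, with circles for plain names, triangles for split names and a bar at the group median. For *Hp*, *Cfd* and *Adipoq*, 3 plain-name IgG libraries and the 3 split-name ABTAA libraries lie above the rest.

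In the CL kidneys of the same 2 treatments ABTAA likewise gave 0 of 9579 genes at an adjusted *p* under 0.05 in edgeR (0%), with 581 (6.07%) at an unadjusted *p* under 0.05. The difference between the UUO and CL effects, tested as an interaction, also gave 0 of 9579 genes (0%) at the adjusted threshold, with 493 (5.15%) unadjusted. CL and UUO kidneys came from the same mice, but the labels state no mouse identifier. Split names of ABTAA libraries carry the same numbers in both kidneys, but what these mark is not stated. This test therefore treats kidneys of 1 mouse as independent. In CL kidneys the median log2 fold change was -0.21 for ECM modification, 0.11 for tubular injury, -0.08 for proximal tubule, -0.12 for nuclear oxidative phosphorylation and 0.04 for fatty acid oxidation. The macrophage and dendritic cell list was at -0.34. Set beside the UUO values, the matrix and macrophage medians were below 0 in both kidneys, and the proximal tubule and oxidative phosphorylation medians were above 0 in UUO and below 0 in CL kidneys. Of single genes, the interaction had its lowest unadjusted *p* among named genes for *BC017158*, at 0.53 (SE 0.14) in UUO and -0.45 (SE 0.14) in CL kidneys (difference 0.99, adjusted *p* = 0.14 in edgeR). *Slc5a2* was at 0.43 in UUO and -0.36 in CL kidneys (difference 0.80, SE 0.22, adjusted *p* = 0.91 in edgeR).

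Endothelial deletion of *Veptp*, which acts on TIE2 from the side of its phosphatase, was compared with ABTAA in UUO kidneys in 1 fit over both pairs of groups. They share no library. Between VeptpKO and VeptpWT, 23 of 10664 genes (0.216%) passed the adjusted threshold, 19 lower and 4 higher. Of the 19 lower genes, 15 were also below 0 with ABTAA, and all 19 were farther below 0 with VeptpKO, with medians of -1.07 for VeptpKO and -0.22 for ABTAA. These genes were chosen by the VeptpKO contrast, which by itself favors larger values there. The effects differed at an unadjusted *p* under 0.05 for 19 of the 23 genes and at the adjusted threshold for 0, and over all 10664 genes for 461 (4.32%) and 0 (0%). *Col1a1* had a log2 fold change of -0.95 (SE 0.21) with VeptpKO and -0.43 (SE 0.22) with ABTAA in this fit, and *Col3a1* of -1.07 (SE 0.19) and -0.39 (SE 0.19). *Loxl2*, a collagen crosslinking enzyme, was at -1.24 (SE 0.17) and -0.07 (SE 0.18), a difference of 1.17 (SE 0.25, adjusted *p* = 0.28 in edgeR). *Pdgfra*, a fibroblast marker, was at -1.08 (SE 0.20) and 0.13 (SE 0.22).

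By list, the VeptpKO medians, and the ABTAA medians from its own 15 libraries, were -0.73 and -0.29 for ECM modification, -0.55 and -0.0055 for endothelial genes, -0.22 and -0.20 for tubular injury, -0.26 and -0.21 for macrophages and dendritic cells, 0.18 and 0.23 for proximal tubule, 0.22 and 0.18 for nuclear oxidative phosphorylation, and 0.26 and 0.21 for fatty acid oxidation. Further lists were at 0.09 and 0.33 for loop of Henle, 0.08 and -0.17 for NF-kB and acute inflammation, -0.36 and -0.19 for complement, -0.65 and -0.21 for leukocyte markers, and 0.17 and -0.036 for mitochondrial DNA genes. TGF-beta response (-0.28 and -0.18) and fibroblast and pericyte genes (-0.29 and -0.23) lay closer together than the ECM modification list. The further collagens and matrix list was at -0.61 and -0.21, and matrix proteases and inhibitors were at -0.55 and -0.16. No gene of these lists differed between the models at the adjusted threshold.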

How the data were processed

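Bulk RNA-Seq was analysed from a count table of 75 libraries in 12 groups (1 row for each of 32245 genes). Per the labels and the study's methods, the authors ran each sample in 4 wells with a Smart-seq3 protocol and merged the reads. The submitters' processing notes name STAR 2.7.3a, the build mm10, UMI-tools 1.1.4 and featureCounts from Subread 1.4.6-p5. The annotation is not given in the sources used here. The deposited values are raw counts, with no normalization.

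Groups were taken from the labels, and the 15 UUO libraries with ABTAA or IgG were compared. Per the study's methods a single animal was the experimental unit, so the libraries of a group were taken as separate mice. Genes were kept by filterByExpr (minimum count 10, by group), which left 7923. Counts were scaled by TMM and tested with edgeR 4.0.16 (glmQLFit, glmQLFTest; R 4.3.3), with the name form as covariate, Benjamini-Hochberg adjustment over all genes tested, and a threshold of 0.05. The study used edgeR's exact test, which takes no covariate, and this was run as an alternative beside DESeq2 1.42.0, limma 3.58.1 (voom), other filters, normalizations and covariates, and fits without each library. The tests were checked on simulated data. The CL, UUO minus CL, and VeptpKO comparisons were fitted in the same way with their own libraries. All per-gene differences are log2 fold changes, ABTAA minus IgG.

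Genes were named by rule: the 10 higher and 10 lower genes with the lowest unadjusted *p* at a mean of at least 20 CPM, the angiopoietin and study panel genes, and in each other list the 3 genes with the lowest *p* and the most abundant gene. The comparison, the lists and the members were chosen with earlier results of these data known. Coordinates are from RefSeq on GRCm38 (mm10), in which 26296 gene symbols of the table matched. A pseudocount of 1 CPM was added for list levels, for the screen of outlying libraries and for the plot of haptoglobin and fat transcripts, and for no fold change. Totals of 172827 to 950522 counts per library limit precision for low genes, and fold changes of genes under about 30 CPM rest on few counts.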

Additional observations from a re-analysis of the deposited data

Results flagged for a closer look

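In 134 groups of values (a gene or list level in the IgG or the ABTAA libraries), 9 had a highest or lowest library whose gap to the next one, as a fraction of the group's range on the log2(CPM + 1) scale, was above Dixon's 95% critical value. Chance alone gives about 5%. Of the angiopoietin axis, *Angpt2* was lowest in ABTAA replicate 4 (gap 0.595, 2.54 CPM against 12.8 in the next library) and *Tie1* in ABTAA replicate 2 (gap 0.853, 0 against 17.9 CPM). *Cdh5* was lowest in IgG replicate 8 (gap 0.602, 10.4 against 24.7 CPM), *Col3a1* in ABTAA replicate 1 (gap 0.608, 303 against 517 CPM) and *Krt8* in IgG replicate 7 (gap 0.679, 216 against 303 CPM). *Acaa2* was highest in IgG replicate 2 (gap 0.570, 376 against 205 CPM). *Fcer1g* was lowest in ABTAA replicate 2 (gap 0.658, 6.77 against 22.4 CPM), where *Dguok* was highest (gap 0.610, 60.9 against 44.7 CPM). *Lynx1* was lowest in IgG replicate 3 (gap 0.691, 3.09 against 14.7 CPM). ABTAA replicate 2 gave 3 of the 9 values.

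The ABTAA effect differed between libraries with plain and with split names for *Hp* (difference of log2 fold changes 5.41), *Car3* (4.63) and *Plin2* (1.27) at an adjusted *p* under 0.05 in edgeR's interaction test.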

How the results depend on the processing

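The count of genes at an adjusted *p* under 0.05 between ABTAA and IgG was 0 in 29 of 31 alternatives. With no filter beyond 1 count it was 22 of 22447 genes, 19 of which were tested with the filter, at unadjusted *p* values from 0.00013 for *Tapt1* to 0.16 for *Klk1*. In that fit all genes received 1 common trend of spread (prior degrees of freedom Inf, against 13.98). *Slc6a19* (0.77), *Gatm* (0.56), *Acaa2* (0.58), *Atp5k* (0.74), *Tapt1* (0.96) and *Car3* (0.86) were among them. Within split-name libraries it was 5: *Cfd* (4.46), *Hp* (2.98), *Car3* (3.11), *Thrsp* (3.17) and *Rps28* (1.03). Unadjusted counts were 269 without the name form, 256 with the exact test, 298 with DESeq2, 474 with voom, 968 with no filter, and 326 to 625 without 1 library, highest without ABTAA replicate 3. Chosen after seeing the data, leaving out the 6 libraries with both *Xist* and Y-linked counts gave 348, and leaving out IgG replicate 1 and ABTAA replicate 3 gave 537. With no filter, the counts at the adjusted threshold were 29 for the interaction with name form (3 with it), 18 in CL kidneys, 21 for UUO minus CL and 28 for ABTAA minus VeptpKO, which was 1 with a sex marker covariate. The cause was not tested.

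Of 54 gene results, 44 kept their direction in all alternatives. Signs turned with a sex marker covariate for *Tie1* (0.00063), within plain-name libraries for *Emcn* (-0.020), *Cdh5* (-0.088) and *Car3* (-1.54), and within split-name libraries for *Kdr* (0.017), *Flt1* (-0.050), *Icam1* (0.036), *Havcr1* (0.036), *Krt8* (0.056) and *Plin2* (0.62). *Plin2* also turned without the name form (0.018), with the exact test (0.016), with no filter (0.017), without the 6 libraries (0.13) and without the closest pair (0.015), and *Kdr* without the 6 libraries (0.097). Without 1 library the ranges were -0.18 to 0.092 for *Tie1*, -0.064 to 0.10 for *Emcn*, -0.063 to 0.22 for *Cdh5*, -0.19 to 0.046 for *Kdr* and -0.13 to 0.059 for *Plin2*. Of 40 list medians 14 kept their direction in all alternatives, among them ECM modification (-0.48 to -0.11), injured tubule (-0.39 to -0.11), proximal tubule (0.068 to 0.39) and fatty acid oxidation (0.17 to 0.27). The tubular injury median was 0.046 within split-name libraries. In these alternatives all list genes that passed the filter of that fit were used, so gene sets differ from those of the within-form medians given above. The complement median was 0.12 over 11 genes within split-name libraries. With libraries thinned to the shallowest, medians turned to -0.34 for FOXO1 and nitric oxide targets (1 gene), -0.20 for glomerular and arterial endothelium (2 genes), -0.083 for principal cells (2 genes) and -0.23 for adipocytes (1 gene), and they were -0.41 for endothelial genes (1 gene), -0.60 for leukocyte markers (1 gene) and -0.19 for PDGF and VEGF genes (4 genes). No paired analysis was possible because the groups are different mice and the replicate numbers used here follow accession order, not a label. Depth limits genes of low expression, where 37.7% of intervals lay within 1.5-fold.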

Other observations

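Other gene groups are given by their medians, beside -0.0054 for all genes. Interferon-stimulated genes (13 of 18 tested, 4 higher and 9 lower, 0 at an unadjusted *p* under 0.05) had a median log2 fold change of -0.10 (-0.07 with plain and 0.01 with split names), hypoxia and glycolysis genes (15 of 20 tested, 11 higher and 4 lower) of 0.06, and antioxidant and ferroptosis genes (17 of 18 tested, 11 higher and 6 lower) of 0.05. Podocyte genes (5 of 10 tested) were at 0.09, but at -0.05 without ABTAA replicate 5 and at 0.24 without ABTAA replicate 6. Intercalated cell genes (5 of 9 tested) were at 0.10, but at 0.25 with plain and -0.15 with split names, and at -0.12 without the 6 libraries with both *Xist* and Y-linked counts. Erythroid and muscle genes (4 of 8 tested) were at 0.16, but at 0.30 and -0.16 within the forms and at -0.10 without those 6 libraries, and their summed level overlapped widely (118 to 781 CPM with IgG and 109 to 913 with ABTAA). Endothelial FOXO1 and nitric oxide targets (4 of 12 tested) were at 0.13, with 0.18 and -0.05 within plain and split names, -0.01 without the 6 libraries and -0.34 for the 1 gene still tested after thinning to the shallowest library. PDGF and VEGF genes (11 of 15 tested) were at -0.04, and at -0.19 over 4 genes after thinning. T, B and NK cell genes (2 of 17 tested) were at -0.38, but at -0.73 without the 6 libraries and at -0.17 without IgG replicate 6. The study's leukocyte markers (3 of 8 tested) were at -0.21, but at -0.29 and -0.05 within plain and split names and at -0.02 without the 6 libraries. Both lists had 0 genes at an unadjusted *p* under 0.05. Kidney genes with a bias to males (5 of 6 tested) were at 0.21 and to females (3 of 4 tested) at 0.09, and at 0.03 and 0.17 with a sex marker covariate. The male-biased median was -0.08 without ABTAA replicate 4 and 0.50 without the 6 libraries. The female-biased median joined 0.72 with plain and -0.66 with split names, and it was -0.35 without the 6 libraries.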
